A study of Arabidopsis thaliana with 30 samples.

Results

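Members of the WRKY family of Arabidopsis thaliana were followed through 30 RNA-seq libraries from whole seedlings aged 6 days, mock-treated or submerged. The 42 family members described were a listed set of genes matched by gene identifier in both count tables, out of 32833 genes in each table, and all 42 had at least 1 count in some library. They are not all WRKY genes of the plant, and the sums, shares and subgroup counts below cover these listed members only. WRKY proteins are plant transcription factors that bind the W-box, a short promoter element with the core TTGAC, through a conserved DNA-binding domain with a zinc finger. They are sorted into subgroups by the number of WRKY domains and the kind of zinc finger: group I has a pair of domains, groups IIa to IIe have a single domain and group III has a differently spaced finger. Many members are transcribed within minutes of microbial, wounding or oxidative signals, several are phosphorylated by the mitogen-activated kinases MPK3 and MPK6, and many act on the promoters of other members. In submerged Arabidopsis, WRKY22 is known for raising resistance to bacteria.

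The libraries form 2 sets with their own Col wild-type controls, each group having 3 libraries. The bak set holds Col and bak1-3 bkk1-1, which the labels describe as T-DNA lines. BAK1 and BKK1 encode co-receptor kinases that serve brassinosteroid and immune receptors. The tcp set holds Col, tcp21 and tcpq, both described as CRISPR lines. TCP21 is a class I TCP transcription factor also known as CHE. The labels used here do not name the genes altered in tcpq, the number of independent lines or the length of the submergence. The extraction text speaks of germinating seeds as well as of seedlings. Nothing in the labels says that replicates came from separate cultures, so the p-values rest on the spread between libraries, which may be technical. The series states as its purpose to profile mutants that are sensitive to submergence.

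Library totals were 19662531 to 27417759 counts for the bak libraries and 17466180 to 33957452 for the tcp libraries. BAK1 gave 86.9, 77.5 and 69.6 CPM (counts per 1000000 counts of the scaled library) in Col mock and 26.0, 29.4 and 28.6 in bak1-3 bkk1-1 mock. BKK1 gave 44.2, 34.1 and 30.9 CPM in Col mock and 11.5, 15.1 and 12.4 in the double mutant. Under submergence BAK1 gave 116, 136 and 143 CPM in Col and 85.7, 75.1 and 70.8 in the mutant, and BKK1 gave 41.3, 52.2 and 48.5 and 18.7, 19.0 and 19.7. Both genes were lower in the mutant than in Col of the same treatment but not at 0, BAK1 by 1.48 in mock and 0.77 under submergence on the log2 scale, and submerged mutant libraries had BAK1 within the range of Col mock. TCP21 gave 83.2, 102 and 93.7 CPM in Col mock, 27.9, 28.7 and 33.0 in tcp21 and 19.9, 22.8 and 23.6 in tcpq. An edited gene may still be transcribed, so these levels do not test the edits. For 1 library of the tcp set, Col mock replicate 1, the genotype field names the bak1-3 bkk1-1 lines, while the title and strain say Col. Its BAK1 and BKK1 levels were 78.7 and 49.2 CPM, next to 75.3 and 35.6 in the next Col mock library, and it was kept as Col. Green shoot and root marker genes were present in all groups. Seed storage genes summed to 0.589 to 232 CPM in Col mock of the bak set and 109 to 194 in submerged Col, against 0.0486 to 10.3 and 0.163 to 1.66 in bak1-3 bkk1-1 and at most 2.14 in the tcp set. The part of these seed transcripts in the bak results below was not tested.

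Tests were made in edgeR within each set, with p-values adjusted by the Benjamini-Hochberg method over all genes tested, and a call means an adjusted p below 0.05. Counts of members called are set beside the shares of all genes called. The members were chosen with earlier results of these data known. The part of that choice in any gap between such shares was not tested. Of the 42 members, 41 passed the filter on low counts in the bak libraries and 40 passed it in the tcp libraries. WRKY41, a group III gene, was not tested in either set and reached at most 0.328 CPM. WRKY55 was not tested in the tcp set, where it reached at most 0.532 CPM. Fold changes are log2 values with the approximate standard error (SE) of the fit. In whole seedlings, fewer cells of a type and less RNA per cell cannot be told apart.

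Promoter windows of 4 members are given to show where the W-box core, the element that WRKY factors themselves bind, lies in them. Each runs from 300 bases before the annotated gene start up to the base before it, 5′ to 3′ on the gene's strand, from RefSeq release TAIR10.1. Capitals mark TTGAC or its reverse complement GTCAA, searched on both strands, and no match overlaps another in the windows shown. The count tables hold no coordinates, and the submitters' processing notes name TAIR10. WRKY33, WRKY40, WRKY22 and WRKY18 are shown because their responses to submergence or genotype are described in detail below. They lie at chr2:16107935-16108234 on the plus strand, chr1:30383261-30383560 on the plus strand, chr4:524250-524549 on the minus strand and chr4:15382477-15382776 on the plus strand.
WRKY33: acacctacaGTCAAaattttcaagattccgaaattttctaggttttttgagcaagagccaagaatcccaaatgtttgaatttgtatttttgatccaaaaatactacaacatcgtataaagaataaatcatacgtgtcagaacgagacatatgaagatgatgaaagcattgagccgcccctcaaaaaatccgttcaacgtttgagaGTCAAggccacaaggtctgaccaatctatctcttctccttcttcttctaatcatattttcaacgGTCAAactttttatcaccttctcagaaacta
WRKY40: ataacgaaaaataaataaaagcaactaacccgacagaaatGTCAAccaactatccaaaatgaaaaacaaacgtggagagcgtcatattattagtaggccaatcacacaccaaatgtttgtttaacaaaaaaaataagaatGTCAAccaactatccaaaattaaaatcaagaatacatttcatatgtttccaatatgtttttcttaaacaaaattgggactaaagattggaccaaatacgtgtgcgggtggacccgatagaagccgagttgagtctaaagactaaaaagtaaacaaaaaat
WRKY22: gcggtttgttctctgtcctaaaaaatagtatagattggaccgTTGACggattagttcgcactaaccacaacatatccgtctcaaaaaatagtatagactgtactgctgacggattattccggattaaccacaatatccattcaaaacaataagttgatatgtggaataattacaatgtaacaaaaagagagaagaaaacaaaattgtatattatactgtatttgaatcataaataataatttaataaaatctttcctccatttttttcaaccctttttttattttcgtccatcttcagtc
WRKY18: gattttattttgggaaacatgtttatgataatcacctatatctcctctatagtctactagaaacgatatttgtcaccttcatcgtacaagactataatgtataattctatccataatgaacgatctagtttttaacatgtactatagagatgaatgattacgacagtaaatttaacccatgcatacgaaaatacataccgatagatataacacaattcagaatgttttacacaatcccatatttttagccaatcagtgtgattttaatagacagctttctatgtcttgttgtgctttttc
The WRKY33 window holds 3 copies, the nearest 27 bases before the gene start. The WRKY40 window holds 2 copies, the nearest 156 bases before the start, and the WRKY22 window holds 1 copy at 254 bases. None was found in the WRKY18 window, which says only that these letters are not in those 300 bases. At least 1 copy was found in 27 of 42 members (64.3%), compared with 50.4% of 27443 windows of protein-coding genes. At least 3 copies were found in 5 members (11.9%) and in 5.07% of all windows. Per reference annotation, 9 members overlap a gene on the opposite strand, among them WRKY33, WRKY40, WRKY29 and WRKY53. The strand setting of the counting is not given in the sources used here, so their counts may hold reads of the partner gene.

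Submergence of Col in the bak set raised more WRKY genes than it lowered, while WRKY40 and WRKY33, the members with the highest mock levels per kilobase of exon, fell. The called members were 20 higher and 7 lower of 41, where 25.7% of all genes were called higher and 24.8% lower. The median change was 0.43 over the members tested and 0.01 over all genes tested. Summed over the family, the level was 1513 to 2062 CPM in mock and 1403 to 1743 under submergence, ranges that overlap. Members with many counts weigh most in this sum, WRKY33 and WRKY40 among them in mock, with means of 448 and 302 CPM. Mean levels of WRKY40 and WRKY33 in Col mock were 228 and 221 CPM per kb. After submergence WRKY15 led, at 102 CPM per kb, and WRKY40 and WRKY33 stood at 19.0 and 37.6.

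**Figure D1:**
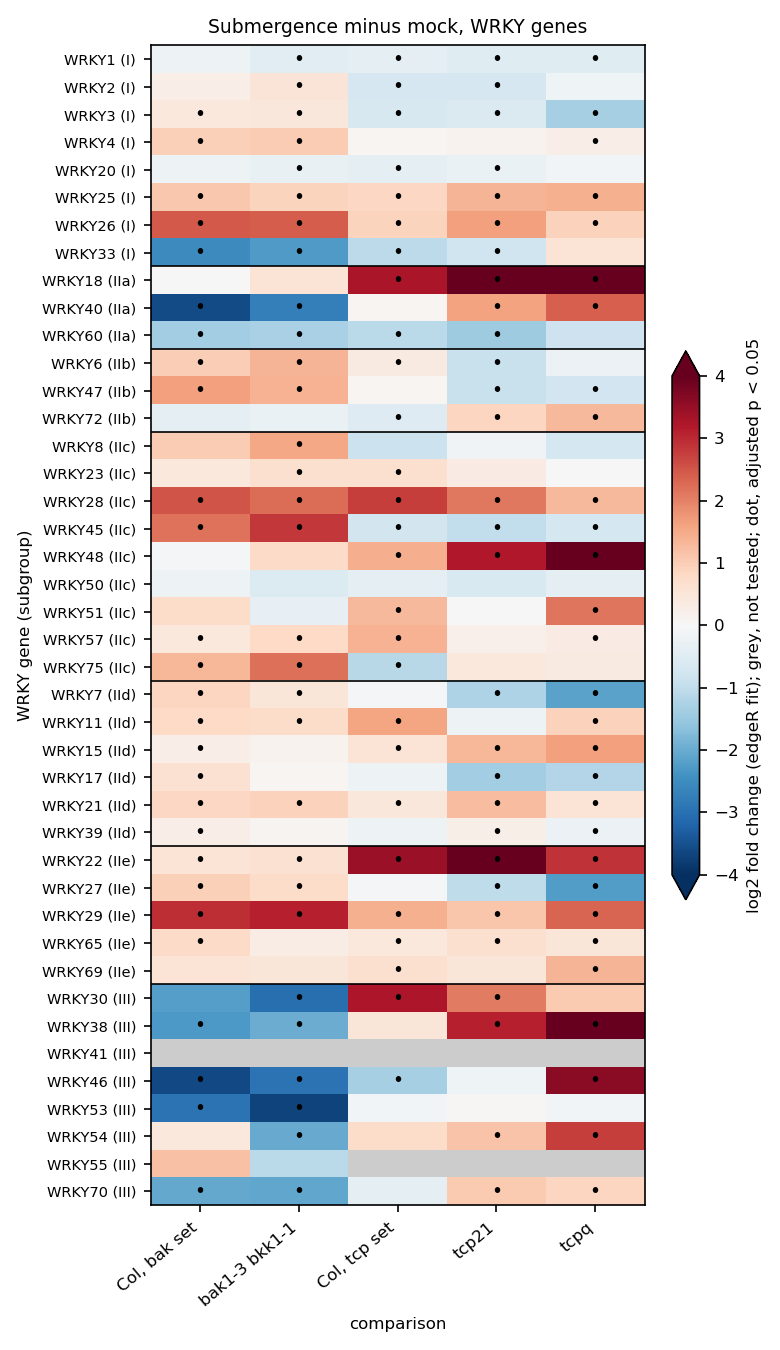
Heat map of log2 fold change, submergence minus mock, for each WRKY gene (rows, by subgroup) in the 5 genotypes and sets (columns). Red is higher and blue lower under submergence, colours saturate at 4, a dot marks an adjusted p below 0.05 and grey marks genes not tested. Group III is mostly blue in both bak-set columns (0 members higher) and has 4 members called higher in tcp21 and 4 in tcpq.

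Group I holds the heat-associated WRKY25 and WRKY26 and the camalexin regulator WRKY33, and these moved apart in the bak set. WRKY26 (AT5G07100) read 16.5, 15.3 and 16.9 CPM in Col mock and 78.5, 91.8 and 98.0 under submergence, a change of 2.46 ± 0.12, adjusted p = 1.88e-11. Every submerged library lay above every mock library. WRKY33 (AT2G38470), needed for camalexin synthesis and resistance to Botrytis, read 566, 419 and 358 CPM in Col mock and 71.9, 64.0 and 92.9 under submergence, a change of -2.56 ± 0.16, adjusted p = 5.91e-09. The mock libraries spread widely for WRKY33, but all exceeded the submerged ones. WRKY25 rose by 1.09 and WRKY4, which acts in resistance to necrotrophs, by 0.95. WRKY3, its close relative, rose by 0.43, while WRKY1, WRKY2 and WRKY20 were not called, at -0.22, 0.26 and -0.20.

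Group IIa comprises WRKY18, WRKY40 and WRKY60, which bind one another and modulate basal defence and abscisic acid responses. WRKY40 (AT1G80840) read 377, 326 and 203 CPM in Col mock and 19.5, 28.2 and 28.0 in submerged Col, a change of -3.59 ± 0.29, adjusted p = 3.81e-06. WRKY60 fell as well, by 1.39 (adjusted p = 6.71e-04). WRKY18 was not called, at -0.02 (adjusted p = 0.961), with 78.2, 51.8 and 43.1 CPM in mock and 52.4, 54.3 and 64.1 under submergence. In group IIb, the members WRKY6, a repressor of the phosphate exporter gene PHO1, and WRKY47 rose by 0.99 and 1.65. WRKY47 read 19.8, 18.2 and 19.6 CPM in mock and 58.3, 54.0 and 68.4 under submergence, groups that do not overlap. WRKY72, which takes part in basal resistance to nematodes, was not called at -0.35.

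In bak-set Col, the called members of groups IIc, IId and IIe were all higher, with 4 of 9, 6 of 6 and 4 of 5. WRKY45 (AT3G01970) and WRKY75, both described as activators of the phosphate transporter gene PHT1;1, rose by 2.16 (adjusted p = 1.82e-08) and 1.32 (adjusted p = 3.10e-04). WRKY45 read 4.58, 6.01 and 5.60 CPM in mock and 18.8, 24.7 and 29.9 under submergence, and PHT1;1 itself rose by 0.87 (adjusted p = 0.00135). In bak1-3 bkk1-1, where WRKY45 and WRKY75 were also called higher, PHT1;1 groups overlapped. They read 48.1, 51.0 and 65.3 CPM in mock and 68.8, 67.6 and 57.5 submerged. A link between these genes was not tested. WRKY28 (AT4G18170), an activator of the salicylic acid synthesis gene ICS1, rose by 2.52 (adjusted p = 2.1e-04), and ICS1 rose by 1.06 (adjusted p = 1.57e-05). A link of WRKY28 to ICS1 was not tested either. WRKY29 (AT4G23550), placed downstream of flagellin perception with WRKY22, showed 6.08, 5.49 and 5.93 CPM in mock and 32.7, 45.7 and 57.3 under submergence, a change of 2.95 ± 0.32, adjusted p = 2.15e-05. WRKY22 moved less, by 0.54 (adjusted p = 0.00440). The group IId genes encode calmodulin-binding factors, of which WRKY7, WRKY11 and WRKY17 restrain basal defence. WRKY7, WRKY21, WRKY11 and WRKY17 rose by 0.86, 0.82, 0.78 and 0.60. In group IIe, WRKY65 rose by 0.77. The changes of WRKY15 and WRKY39 were small, 0.26 and 0.26, and their groups overlapped. The WRKY15 call was lost without Col mock replicate 2 or Col mock replicate 3 or Col submergence replicate 2 or Col submergence replicate 3, with adjusted p up to 0.216, its change being 0.17 without Col mock replicate 3. The WRKY39 call was lost without Col mock replicate 1 or Col mock replicate 2 or Col submergence replicate 2 or Col submergence replicate 3, with adjusted p up to 0.180. WRKY57, which acts in drought tolerance and leaf senescence, rose by 0.41, a call lost without Col mock replicate 3 or Col submergence replicate 1, with adjusted p up to 0.0916.

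Group III, which holds the salicylic acid and senescence regulators, had 4 of 7 tested members called lower and none higher. WRKY46 (AT2G46400) read 50.6, 44.7 and 24.8 CPM in Col mock and 3.73, 2.32 and 3.61 in submerged Col, a change of -3.62 ± 0.43, adjusted p = 6.29e-05. WRKY53, a promoter of leaf senescence, read 59.1, 26.1 and 23.3 CPM in mock and 6.13, 3.26 and 4.14 under submergence, a change of -2.97 ± 0.46, adjusted p = 5.03e-04. WRKY70 (AT3G56400), which balances salicylic acid and jasmonate responses, read 44.0, 60.5 and 71.7 CPM in mock and 15.3, 13.6 and 13.4 under submergence, a change of -2.05 ± 0.17, adjusted p = 6.10e-08. All submerged libraries lay below all mock libraries for these members. WRKY38, a negative regulator of basal defence, fell by 2.30 (adjusted p = 0.00501) from low levels. WRKY30, WRKY54 and WRKY55 were not called, at -2.21, 0.41 and 1.16. The green shoot markers were lower under submergence, 4 of 4 called, summing to 17482 to 18983 CPM in mock and 9412 to 10913 under submergence, and root markers summed to 98.5 to 125 and 88.2 to 109. The part of this shift in the WRKY changes was not tested.

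The response of bak1-3 bkk1-1 to submergence held 19 members higher and 11 lower of 41, beside 26.5% and 27% of all genes. Members called lower were 26.8% of those tested, near the share of all genes. The median change was 0.47, against -0.02 over all genes tested. Of the members called higher, 16 were shared with Col, which is 80.0% of the Col list and 84.2% of the mutant list. All 7 members called lower in Col were called lower in the mutant, where they made up 63.6% of the list, and no member was called in opposite directions. Over genes tested in both sets, 21.7% were higher in both genotypes, 21% lower in both and 0.0299% opposite. WRKY33 read 429.9, 477 and 442 CPM in mutant mock and 104, 91.2 and 84.9 under submergence. WRKY53 gave 69.4, 48.0 and 39.6 CPM in mock and 4.35, 3.89 and 3.88 under submergence, a change of -3.69 ± 0.46, adjusted p = 1.11e-04. WRKY75 gave 3.17, 4.52 and 4.32 CPM in mock and 19.5, 14.8 and 20.2 under submergence, a change of 2.2 ± 0.23, adjusted p = 2.53e-07. Submerged and mock libraries did not overlap for these genes. The members with the smallest adjusted p among those higher were WRKY26, WRKY45, WRKY47 and WRKY4, which rose by 2.42, 2.84, 1.39 and 1.03. Among those lower, WRKY70, WRKY54 and WRKY40 fell by 2.07, 2.02 and 2.75. Group III had 6 of 7 tested members called lower. WRKY30, of the same group, fell by 3.03 (adjusted p = 0.0282), a call lost without bak1-3 bkk1-1 mock replicate 1 or bak1-3 bkk1-1 submergence replicate 1 or bak1-3 bkk1-1 submergence replicate 2 or bak1-3 bkk1-1 submergence replicate 3, with adjusted p up to 0.0998. Green shoot markers were lower here too, 4 of 4 called, summing to 16088 to 17155 CPM in mock and 6558 to 8690.5 under submergence, and their part was not tested.

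Under mock conditions, bak1-3 bkk1-1 differed from Col in 3 members, all higher, where 0.798% of all genes were called higher and 0.145% lower. At an unadjusted p below 0.05 edgeR had 7 members higher and 1 lower, and DESeq2 called 3 higher and 0 lower. WRKY54 and WRKY70, group III regulators that act together in leaf senescence and salicylic acid signalling, were both among them. WRKY54 (AT2G40750) read 1.67, 1.63 and 1.51 CPM in Col and 8.69, 14.9 and 10.2 in the mutant, a difference of 2.80 ± 0.28, adjusted p = 6.92e-06. WRKY70 read 44.0, 60.5 and 71.7 CPM in Col and 104, 129.9 and 128 in the mutant, a difference of 1.04 ± 0.15, adjusted p = 0.00110. Mutant libraries exceeded all Col libraries for both genes. The WRKY70 call was lost when only the groups compared entered the fit, with adjusted p = 0.107. WRKY51, which with WRKY50 mediates repression of jasmonate responses by salicylic acid, read 1.59, 1.00 and 0.421 CPM in Col and 4.37, 3.55 and 2.51 in the mutant, a difference of 1.80 ± 0.39, adjusted p = 0.0245. Its call was lost without bak1-3 bkk1-1 mock replicate 1 or bak1-3 bkk1-1 mock replicate 2 or Col mock replicate 2 or Col mock replicate 3, with adjusted p up to 0.153. Of 14 tested genes that have been described as WRKY targets, 2 were higher and none lower: ICS1 by 1.12 and the defence gene PR1, which had 0.132, 0 and 0 CPM in Col and 2.65, 5.2 and 1.32 in the mutant. SIB1, which encodes a VQ-motif partner of WRKY33, was higher by 1.59 (adjusted p = 7.38e-06). Seed storage sums were high in 1 Col mock library, replicate 2, and at most 10.3 CPM in the other mock libraries of the set. Of 4 seed storage genes 0 were called, at a median difference of -8.02, so the lack of calls does not show equal levels. Over the fits that left out 1 library, 2 to 4 members were called higher, and the WRKY51 call was lost without Col mock replicate 2.

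**Figure D2:**
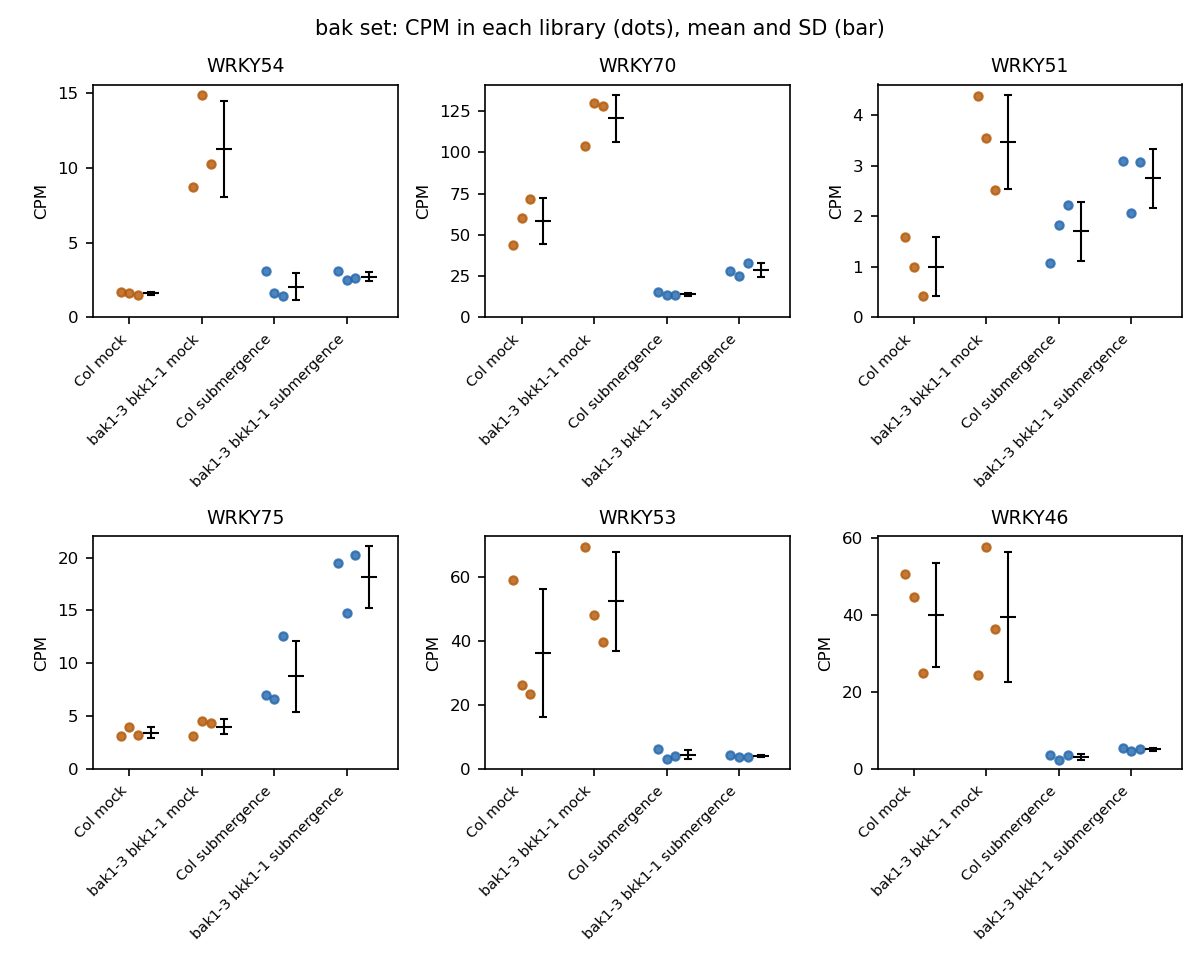
CPM of 6 WRKY genes in the 12 bak-set libraries, by genotype and treatment (orange, mock; blue, submergence), with the mean and SD of 3 libraries as a black bar. WRKY54 and WRKY70 are higher in bak1-3 bkk1-1 than in Col in mock, and WRKY53 and WRKY46 are low under submergence in both genotypes.

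Under submergence, 2 members were higher in bak1-3 bkk1-1 than in Col and none lower, beside 0.648% and 0.731% of all genes. At an unadjusted p below 0.05 edgeR had 4 higher and 1 lower, and DESeq2 called 2 higher and 0 lower. WRKY70 gave 15.3, 13.6 and 13.4 CPM in Col and 28.2, 24.9 and 33.0 in the mutant, a difference of 1.03 ± 0.17, adjusted p = 0.00499. WRKY75 gave 7.01, 6.66 and 12.6 CPM in Col and 19.5, 14.8 and 20.2 in the mutant, a difference of 1.08 ± 0.20, adjusted p = 0.00729. The mutant libraries lay above the Col libraries for both. The WRKY75 call was lost without Col submergence replicate 1, with adjusted p up to 0.0521. Seed storage genes summed to 109 to 194 CPM in the submerged Col libraries and 0.163 to 1.66 in the submerged mutant libraries. The part of this difference, which goes with genotype, was not tested. In the interaction of genotype and submergence no member was called by edgeR, with 5 members at an unadjusted p below 0.05, where 0.00968% of all genes were called higher and 0.0387% lower. DESeq2 called WRKY54, at -2.40 (adjusted p = 9.34e-05), where the edgeR value was -2.43, and edgeR without a filter on low counts called it at adjusted p = 0.0306. In that gene, Col had 3.10, 1.65 and 1.44 CPM under submergence and the mutant 3.09, 2.49 and 2.62.

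Col of the tcp set answered submergence with 17 members higher and 10 lower of 40, where 27.4% and 23.1% of all genes were called. Members called lower were 25% of those tested, near the share of all genes. The median change was 0.08 over the members and 0.04 over all genes. Summed over the family, the level was 791 to 951 CPM in mock and 1316 to 1506 under submergence, ranges that do not overlap. Members with many counts weigh most in this sum, with means of 255 CPM for WRKY18 and 211 for WRKY22 in submerged Col. Their mock means were 26.5 and 19.3 CPM. WRKY22 (AT4G01250), of group IIe, gave 18.9, 15.0 and 24.1 CPM in Col mock and 221, 212 and 202 under submergence, a change of 3.45 ± 0.24, adjusted p = 3.99e-08. WRKY18 (AT4G31800) gave 24.6, 23.1 and 31.8 CPM in mock and 267, 219 and 279 under submergence, a change of 3.27 ± 0.18, adjusted p = 5.10e-10. No submerged library overlapped the mock libraries for either gene. By mean level per kilobase of exon, WRKY22 and WRKY18 were first and second among the members in submerged Col, at 159 and 126 CPM per kb. In mock they stood at 14.6 and 13.1, and WRKY15 led at 76.7.

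Further members called higher in tcp-set Col included genes of groups IIc, IId and III. WRKY28 read 1.25, 1.53 and 1.25 CPM in mock and 10, 7.46 and 9.62 under submergence, a change of 2.76 ± 0.22, adjusted p = 5.28e-11. WRKY57 and WRKY11 rose by 1.38 and 1.57, with WRKY11 at 32.3, 29.4 and 31.4 CPM in mock and 107, 81.4 and 88.5 under submergence. WRKY48 (AT5G49520), described as a negative regulator of resistance to Pseudomonas, rose by 1.45 (adjusted p = 2.25e-08). WRKY30, a group III gene quickly induced by oxidative signals, went from 0.445, 0.274 and 0.104 CPM to 3.62, 1.97 and 2.45. Its submerged libraries stood apart from mock, at low levels. WRKY51 rose by 1.29, and by 0.84 without Col submergence replicate 3. Among the falls, WRKY75 read 10.5, 10.2 and 11.2 CPM in mock and 4.86, 4.84 and 5.2 under submergence, and WRKY3 fell by 0.64. Group I had 5 of 8 members lower, WRKY33 among them at 113, 119 and 165 CPM in mock and 88.9, 52.3 and 51.4 under submergence, a change of -1.04 ± 0.27, adjusted p = 0.00693. WRKY46 fell by 1.33, a call lost without Col mock replicate 3, with adjusted p up to 0.0519. Green shoot markers summed to 15550.5 to 18385 CPM in Col mock and 19537 to 20223 under submergence, with 2 of 4 called higher and 1 lower. Root markers summed to 74.3 to 84.6 and 80.3 to 86.0, with 1 of 4 called higher and 1 lower. Their part in these changes was not tested.

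The Col controls of both sets agreed in direction for 11 members called higher, which is 55.0% of the bak-set list and 64.7% of the tcp-set list, and for 3 called lower, 42.9% and 30.0%. Of 40 members tested in both sets, these are 27.5% and 7.5%, and of 20069 genes tested in both sets 9.66% were higher in both and 7.29% lower in both. Opposite calls were made for 3 members (7.5%) and for 11.6% of all genes. WRKY3, WRKY45 and WRKY75 were called in opposite directions, WRKY45 at 2.16 in bak-set Col and -0.73 in tcp-set Col. The sets were normalized separately, and no test was made across them.

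Over the 5 genotype and set combinations, whose submergence responses share no libraries, 6 members were called higher in all 5 and none lower in all 5. Of the 40 members tested in both sets the 6 are 15%, where 5.4% of all genes were higher in all 5 and 3.22% lower in all 5. The listed members were chosen with earlier results known, so these shares are no test of the family. The 6 were WRKY21, WRKY22, WRKY25, WRKY26, WRKY28 and WRKY29. Their changes ran from 0.45 for WRKY21 in tcp-set Col to 4.70 for WRKY22 in tcp21. None of these calls was lost when 1 library was left out. Another 17 members (42.5%) were called higher in some and lower in others, beside 27.4% of all genes. Some of these rest on calls that were lost when 1 library was left out. The WRKY39 calls were lost in 4 of 6 such fits in bak-set Col, 4 in tcp21 and 5 in tcpq. The only higher call of WRKY2 and the only lower call of WRKY30, both in bak1-3 bkk1-1, were lost in 3 and 4 of 6. Of the remaining group IIc members, WRKY50 was called in none of the 5 and WRKY8 was higher in bak1-3 bkk1-1, at 1.54 (adjusted p = 0.00374). WRKY23, which auxin induces in roots, was called higher in bak1-3 bkk1-1, at 0.63, and in tcp-set Col, at 0.65. The first of these calls was lost without bak1-3 bkk1-1 mock replicate 1 or bak1-3 bkk1-1 mock replicate 3 or bak1-3 bkk1-1 submergence replicate 1 or bak1-3 bkk1-1 submergence replicate 3, with adjusted p up to 0.186. The second was lost without Col mock replicate 1 or Col submergence replicate 1, with adjusted p up to 0.135. In group IIe, WRKY65 was higher in 4 of the 5, all but bak1-3 bkk1-1, and WRKY69 in tcpq, at 1.35 (adjusted p = 3.31e-06), and tcp-set Col, at 0.63. The WRKY69 call in Col was lost without Col mock replicate 3 or Col submergence replicate 3, with adjusted p up to 0.0643.

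In tcp21, 17 members rose and 12 fell under submergence, beside 24.5% and 25.4% of all genes, and in tcpq 21 rose and 8 fell, beside 32.9% and 31.1%. The medians were 0.22 and 0.51, against -0.01 and 0.01 over all genes. The family sum was 522 to 649.8 CPM in tcp21 mock and 851 to 938 submerged, and 504 to 562 and 915 to 972 in tcpq. WRKY48 gave 1.47, 3.52 and 3.71 CPM in tcp21 mock and 23.6, 20.7 and 30.7 submerged, a change of 3.21 ± 0.20, adjusted p = 1.01e-11. In tcpq WRKY48 gave 1.17, 1.31 and 1.51 CPM in mock and 40.4, 42.6 and 38.6 submerged, a change of 4.93 ± 0.22, adjusted p = 1.28e-14. In tcp21 WRKY18 gave 5.05, 7.60 and 6.86 CPM in mock and 100, 108 and 113 submerged, a change of 4.07. In tcpq it gave 6.67, 7.47 and 3.20 CPM in mock and 175, 179.9 and 149 submerged, a change of 4.86. Submerged and mock libraries were separate for these genes. WRKY22 rose by 4.70 in tcp21 and 2.90 in tcpq. Green shoot markers summed to 21858 to 23267 CPM in tcp21 mock and 23441 to 24507 submerged, with 1 of 4 called higher and 1 lower, and to 11492 to 13410.2 in tcpq mock and 18989.9 to 21694 submerged, with 3 called higher and 1 lower. Root markers summed to 153 to 171 CPM in tcp21 mock and 103 to 110.0 submerged, with 2 of 4 called lower, and to 83.9 to 93.8 and 101 to 109 in tcpq, with 2 higher and 1 lower. The part of these shifts in the WRKY changes was not tested.

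WRKY7, WRKY17 and WRKY27 fell in both tcp mutants. WRKY7 (AT4G24240) read 44.5, 43.9 and 40.5 CPM in tcpq mock and 8.94, 9.77 and 10.2 submerged, a change of -2.15 ± 0.11, adjusted p = 7.19e-16. In tcp21 it read 25.1, 25.9 and 22.7 CPM in mock and 9.21, 11.0 and 11.1 submerged. WRKY17 fell by 1.40 in tcp21 and 1.17 in tcpq. WRKY27, which influences the onset of bacterial wilt symptoms, fell by 1.00 and 2.23. The values of tcp21 mock replicate 2 stood apart in several stress-associated members: WRKY40 read 4.99, 25.2 and 2.1 CPM and WRKY46 1.85, 7.47 and 1.22 CPM in tcp21 mock replicates 1, 2 and 3. WRKY40 was called higher under submergence in tcp21 at 1.59 (adjusted p = 0.0340), and at 3.06 without that library. Its call was lost without tcp21 mock replicate 1 or tcp21 mock replicate 3 or tcp21 submergence replicate 1 or tcp21 submergence replicate 2 or tcp21 submergence replicate 3, with adjusted p up to 0.135, and at adjusted p = 0.213 when only the groups compared entered the fit. In tcpq WRKY40 rose by 2.39 (adjusted p = 0.00448) from 7.14, 8.54 and 3.62 to 33.6, 36.6 and 30.9 CPM. WRKY33 fell in tcp21 at -0.81 (adjusted p = 0.0343), a call lost without tcp21 mock replicate 1 or tcp21 mock replicate 2 or tcp21 submergence replicate 1 or tcp21 submergence replicate 2 or tcp21 submergence replicate 3, with adjusted p up to 0.162, and its change was -0.53 without tcp21 mock replicate 2. In tcpq WRKY33 was not called, at 0.55 (adjusted p = 0.151). Group III had 4 of 6 tested members higher in tcp21 and 4 in tcpq, and none lower. In tcp21 these were WRKY30, WRKY38, WRKY54 and WRKY70, and in tcpq WRKY38, WRKY46, WRKY54 and WRKY70. The WRKY30 call in tcp21, at 2.06, was lost without tcp21 mock replicate 1 or tcp21 mock replicate 3 or tcp21 submergence replicate 2 or tcp21 submergence replicate 3, with adjusted p up to 0.172. Its change was 1.22 without tcp21 mock replicate 1 and 4.68 without tcp21 mock replicate 2, and that of WRKY38 went from 3.10 to 6.74 without the latter. Mean levels in tcp21 were 0.160 CPM in mock and 0.644 submerged for WRKY30, and 0.0708 and 0.616 for WRKY38. These fold changes rest on few counts, and their size, above all for WRKY38, depends on the prior count. The WRKY70 call in tcpq, at 0.85, was lost without tcpq mock replicate 1 or tcpq mock replicate 3 or tcpq submergence replicate 3, with adjusted p up to 0.0938. WRKY46 in tcpq went from 0.401, 0.514 and 0.379 to 6.31, 5.98 and 4.04 CPM, a change of 3.62 ± 0.76, adjusted p = 8.55e-04. WRKY38 had 0 counts in all tcpq mock libraries and 0.796, 0.747 and 0.420 CPM submerged.

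**Figure D3:**
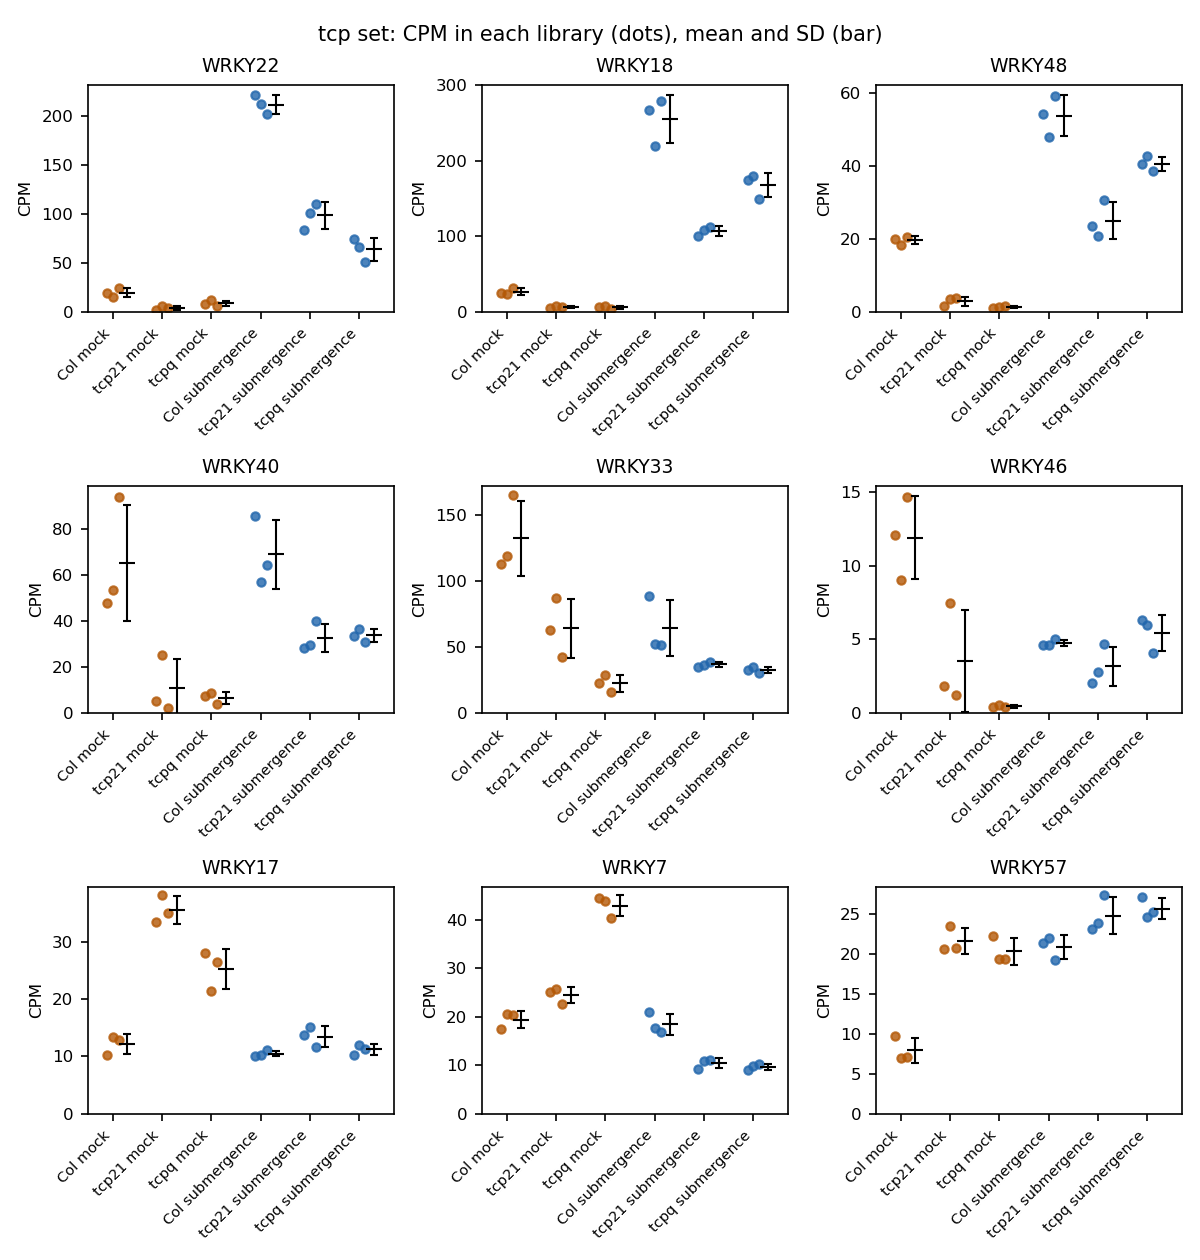
CPM of 9 WRKY genes in the 18 tcp-set libraries, by genotype and treatment (orange, mock; blue, submergence), with mean and SD of 3 libraries as a black bar. In the top row, submerged libraries exceed mock libraries in every genotype, and tcp21 mock replicate 2 lies above the other tcp21 mock libraries for WRKY40 and WRKY46.

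Under mock conditions, many WRKY genes were lower in the tcp mutants than in Col. In tcp21, 7 members were higher and 19 lower, where 24% of all genes were called higher and 23.4% lower. In tcpq, 6 were higher and 22 lower, beside 26.4% and 22.5%. The medians were -0.42 and -0.63, against 0.00 and 0.04 over all genes. These comparisons share the Col libraries, so their agreement adds no independent evidence. WRKY48 was lower by 2.87 (adjusted p = 2.85e-10) in tcp21, and tcpq had 1.17, 1.31 and 1.51 CPM against 20, 18.3 and 20.5 in Col, a difference of -3.89 ± 0.24, adjusted p = 1.13e-11. WRKY15 gave 109, 77.5 and 109 CPM in Col, 43.7, 45.1 and 35.2 in tcp21 and 33.6, 35.6 and 27.1 in tcpq, with differences of -1.25 and -1.62. Mutant libraries lay below all Col libraries for both genes.

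The group IIa genes were all lower in both mutants in mock. WRKY40 read 47.9, 53.5 and 94.2 CPM in Col, against 4.99, 25.2 and 2.1 in tcp21 and 7.14, 8.54 and 3.62 in tcpq. The tcp21 difference was -2.60, and -4.06 without tcp21 mock replicate 2. With only the groups compared in the fit, the tcp21 calls of WRKY40 and WRKY46 were lost, with adjusted p = 0.0845 and 0.0688. WRKY18 differed by -2.06 and -2.2. WRKY60 differed by -0.89 and -1.05, the tcp21 call being lost without tcp21 mock replicate 1, with adjusted p up to 0.178, at -0.45. WRKY22 had 18.9, 15.0 and 24.1 CPM in Col, 2.25, 6.03 and 3.54 in tcp21 and 7.54, 11.9 and 6.39 in tcpq, with differences of -2.36 and -1.19. WRKY33 differed by -1.04 and -2.58. WRKY46 differed by -1.78 and -4.79, and by -2.88 in tcp21 without tcp21 mock replicate 2. WRKY17 was among the members higher in both, with 10.2, 13.4 and 12.8 CPM in Col, 33.5, 38.2 and 34.9 in tcp21 and 28.1, 21.3 and 26.5 in tcpq. WRKY57 was higher by 1.42 and 1.34, and WRKY27 by 1.29 and 1.65. WRKY7 was higher by 0.35 in tcp21, a call lost without Col mock replicate 1, with adjusted p up to 0.0504, and by 1.15 in tcpq. Root markers were higher in tcp21 mock than in Col, 4 of 4 called, summing to 74.3 to 84.6 CPM in Col, 153 to 171 in tcp21 and 83.9 to 93.8 in tcpq. In tcpq 2 root markers were called higher and 1 lower. Green shoot markers summed to 15550.5 to 18385, 21858 to 23267 and 11492 to 13410.2 CPM. Their part in the WRKY differences was not tested.

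Set directly against each other in mock, tcpq had 8 members higher and 12 lower than tcp21. These are 20% and 30% of the members tested, not far from the 26.7% and 27.2% of all genes called. WRKY7 was higher by 0.80 (adjusted p = 3.23e-08), WRKY29 lower by 1.21 (adjusted p = 2.21e-06) and WRKY11 lower by 1.11 (adjusted p = 5.91e-06). WRKY33 differed by -1.54. WRKY46 differed by -3.01, and by -1.91 without tcp21 mock replicate 2, and with only the groups compared in the fit its call was lost, with adjusted p = 0.0639. Under submergence the mutants differed in 5 members, 4 higher and 1 lower in tcpq. These are 10% and 2.5% of the members tested, not far from the 8.02% and 5.22% of all genes called. WRKY48 gave 23.6, 20.7 and 30.7 CPM in tcp21 and 40.4, 42.6 and 38.6 in tcpq, a difference of 0.70 ± 0.14, adjusted p = 0.00248. WRKY18 differed by 0.65, a call lost without tcp21 submergence replicate 1 or tcpq submergence replicate 2, with adjusted p up to 0.0611. WRKY23 and WRKY65 were higher by 0.73 and 0.33, and WRKY27 was the lower member, at -0.87. Each of these 3 calls was lost in 4 of the 6 fits that left out 1 library, with adjusted p up to 0.158, 0.120 and 0.153. WRKY23 was lost without tcp21 submergence replicate 1 or tcp21 submergence replicate 2 or tcpq submergence replicate 2 or tcpq submergence replicate 3. WRKY65 was lost without tcp21 submergence replicate 1 or tcp21 submergence replicate 3 or tcpq submergence replicate 1 or tcpq submergence replicate 2. WRKY27 was lost without tcp21 submergence replicate 1 or tcp21 submergence replicate 3 or tcpq submergence replicate 2 or tcpq submergence replicate 3. Of the 5, the WRKY48 call alone was kept in all 6.

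Under submergence more members were called lower than higher in both tcp mutants against Col. In tcp21, 1 member was higher and 18 lower, where 12.2% and 14.8% of all genes were called. In tcpq, 1 was higher and 15 lower, beside 8.71% and 8.17%. The medians were -0.49 and -0.30, against -0.03 and 0.01 over all genes. WRKY22 had 221, 212 and 202 CPM in Col, 83.5, 101 and 110.4 in tcp21 and 73.9, 66.4 and 51.0 in tcpq, with differences of -1.11 ± 0.20, adjusted p = 0.00155 in tcp21 and -1.74 ± 0.21, adjusted p = 7.84e-05 in tcpq. WRKY11 (AT4G31550) had 107, 81.4 and 88.5 CPM in Col, 38.7, 33.8 and 45.2 in tcp21 and 41.7, 41.4 and 35.1 in tcpq, differing by -1.24 in both. All Col libraries exceeded all mutant libraries for both genes. WRKY7 differed by -0.84 and -0.94, the opposite sign to its mock difference. WRKY18 differed by -1.25 in tcp21 and -0.60 in tcpq, where the call was lost without Col submergence replicate 1 or Col submergence replicate 3 or tcpq submergence replicate 3, with adjusted p up to 0.0640. WRKY48 differed by -1.11 and -0.41, the tcpq call being lost without Col submergence replicate 1 or Col submergence replicate 3 or tcpq submergence replicate 1 or tcpq submergence replicate 2 or tcpq submergence replicate 3, with adjusted p up to 0.149, and in DESeq2 (adjusted p = 0.0745). WRKY6 and WRKY28 differed by -0.94 and -1.07 in tcpq. The single higher members were WRKY17 in tcp21, at 0.36 (adjusted p = 0.0445), and WRKY72 in tcpq, at 0.37 (adjusted p = 0.0167). The WRKY17 call was lost without Col submergence replicate 1 or Col submergence replicate 2 or Col submergence replicate 3 or tcp21 submergence replicate 1 or tcp21 submergence replicate 2, with adjusted p up to 0.190. The WRKY72 call was lost without Col submergence replicate 1 or Col submergence replicate 2 or tcpq submergence replicate 2 or tcpq submergence replicate 3, with adjusted p up to 0.0923.

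**Figure D4:**
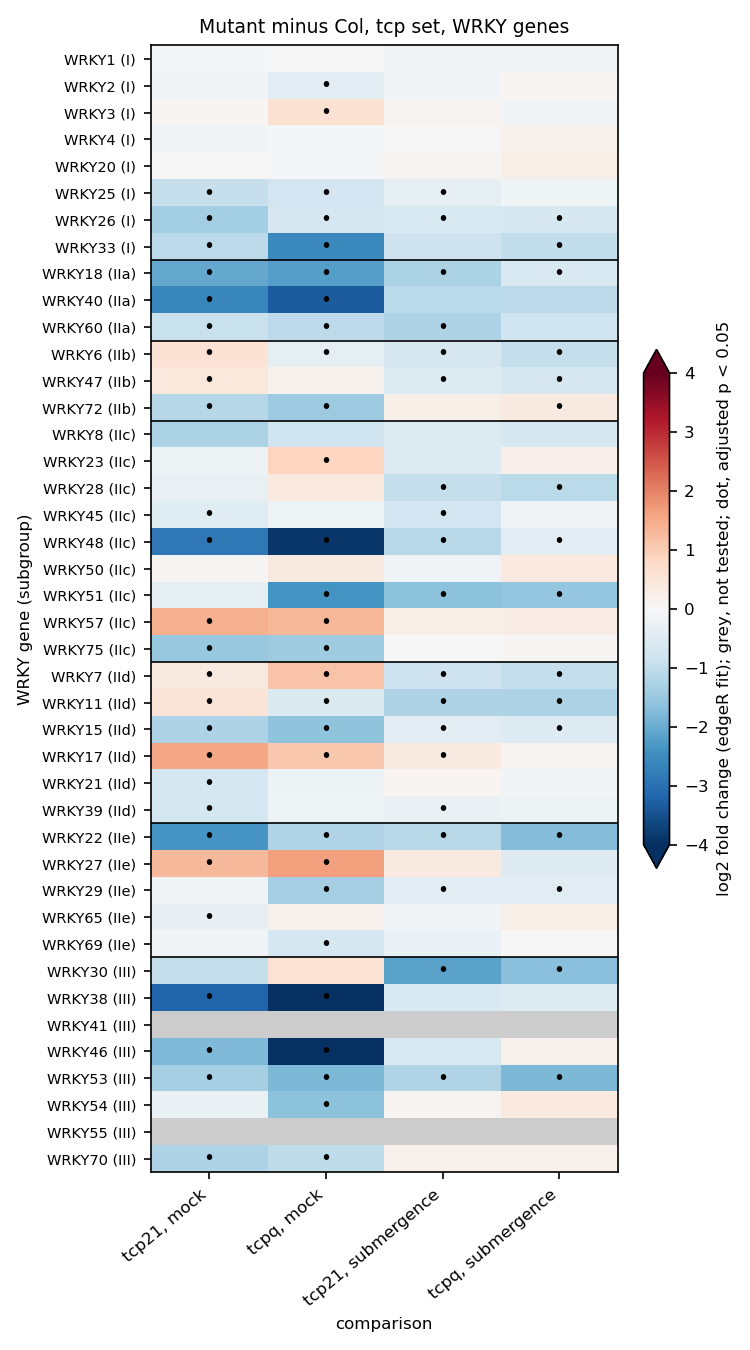
Heat map of log2 fold change, mutant minus Col in the tcp set, for each WRKY gene (rows, by subgroup) in mock and under submergence (columns). Blue is lower and red higher in the mutant, colours saturate at 4, a dot marks an adjusted p below 0.05 and grey marks genes not tested. In mock, 19 members are called lower in tcp21 and 22 in tcpq. Under submergence, 18 and 15 are.

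The response to submergence itself differed between tcp mutants and Col in many members, as tested by the interaction. For tcp21, 11 members had a more positive change than Col and 7 a more negative one. These are 27.5% and 17.5% of the members tested, where 14.7% and 16.3% of all genes were called. The more negative share in tcp21 is near that of all genes. For tcpq the members were 13 and 10, or 32.5% and 25%, beside 17.3% and 17.1% of all genes. WRKY72 had 27.0, 22.4 and 23.8 CPM in Col mock and 17.0, 15.7 and 18 submerged, while tcpq had 8.09, 8.17 and 10.4 in mock and 20.1, 22.3 and 23.1 submerged. Its interaction was 1.38 ± 0.16, adjusted p = 1.36e-07 in tcp21 and 1.83 ± 0.16, adjusted p = 5.31e-10 in tcpq, and it fell in Col and rose in both mutants. WRKY48 had an interaction of 3.48 ± 0.29, adjusted p = 3.84e-09 in tcpq and 1.76 in tcp21. WRKY7 had -2.09 ± 0.15, adjusted p = 2.63e-11 in tcpq and -1.19 in tcp21. WRKY11 rose in Col and tcpq and was not called in tcp21, with an interaction of -1.76 ± 0.20, adjusted p = 3.12e-06 in tcp21. WRKY75 fell in Col by 1.10 and was not called in either mutant, with interactions of 1.54 and 1.45. For WRKY15, WRKY18, WRKY25 and WRKY48 the rise in both mutants began from a lower mock level, and the submerged level was called lower than in Col in tcp21. The WRKY18 interaction in tcp21 was lost without Col mock replicate 3 or Col submergence replicate 1 or Col submergence replicate 2 or tcp21 mock replicate 1 or tcp21 mock replicate 3 or tcp21 submergence replicate 2 or tcp21 submergence replicate 3, with adjusted p up to 0.144, and with no filter on low counts (adjusted p = 0.0577).

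Transcript levels of kinases upstream of WRKY factors and of VQ-motif proteins that bind them were also compared. Such levels do not show kinase activity. MPK3, a kinase that phosphorylates WRKY33, read 219, 196 and 256 CPM in Col mock, 68.7, 69.4 and 57.0 in tcp21 and 38.1, 44.4 and 34.2 in tcpq. Of 9 tested genes on the list of kinase cascade members and VQ-motif partners, 3 were lower in tcp21 mock than in Col and 6 in tcpq, with none higher. Of all genes, 23.4% and 22.5% were called lower and 24% and 26.4% higher, so the tcp21 share called lower is not far from that of all genes. MPK3 differed by -1.78 and -2.53, MEKK1 by -1.24 and -1.14, and MKK4 by -1.71 in tcpq. Under submergence MPK3 fell in Col by 0.53 and rose in tcp21 and tcpq by 1.08 and 2.13. The tcpq interaction for this list was 6 higher and none lower of 9, where 17.3% and 17.1% of all genes were called, with MPK3 at 2.65 (adjusted p = 4.29e-09). In the bak set MPK3 fell under submergence in Col by 1.49 and in bak1-3 bkk1-1 by 1.26.

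Genes described as WRKY targets did not follow a single direction. RAP2.2, an ERF transcription factor of the hypoxia response described as a target of WRKY33, rose in all 5 responses, by 1.45 in bak-set Col, 1.42 in bak1-3 bkk1-1, 0.57 in tcp-set Col, 1.19 in tcp21 and 0.27 in tcpq. ACS2, an ethylene synthesis gene, also rose in all 5, by 3.29, 2.86, 2.04, 1.82 and 2.13 in the same order. ACS6, an ethylene synthesis gene on the same list, went the other way in the bak set. It read 541, 479 and 276 CPM in Col mock and 11.3, 13.3 and 21.7 submerged. In bak1-3 bkk1-1 it read 205, 330 and 333 CPM in mock and 25.6, 14.4 and 20.2 submerged. FRK1, a flagellin-responsive receptor kinase gene downstream of WRKY22 and WRKY29, rose in bak-set Col by 5.18 and fell in tcp-set Col by 2.36. PAD3, the last enzyme of camalexin synthesis, rose in bak-set Col and tcp-set Col by 1.78 and 0.65 and fell in tcp21 and tcpq by 0.73 and 0.90. Of 14 tested genes on this list, 6 rose and 3 fell in bak-set Col, where 25.7% and 24.8% of all genes did. Of 12 tested in the tcp set, 3 rose and 3 fell in Col, shares near the 27.4% and 23.1% of all genes. In tcpq 7 rose and 2 fell, beside 32.9% and 31.1%.

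**Figure D5:**
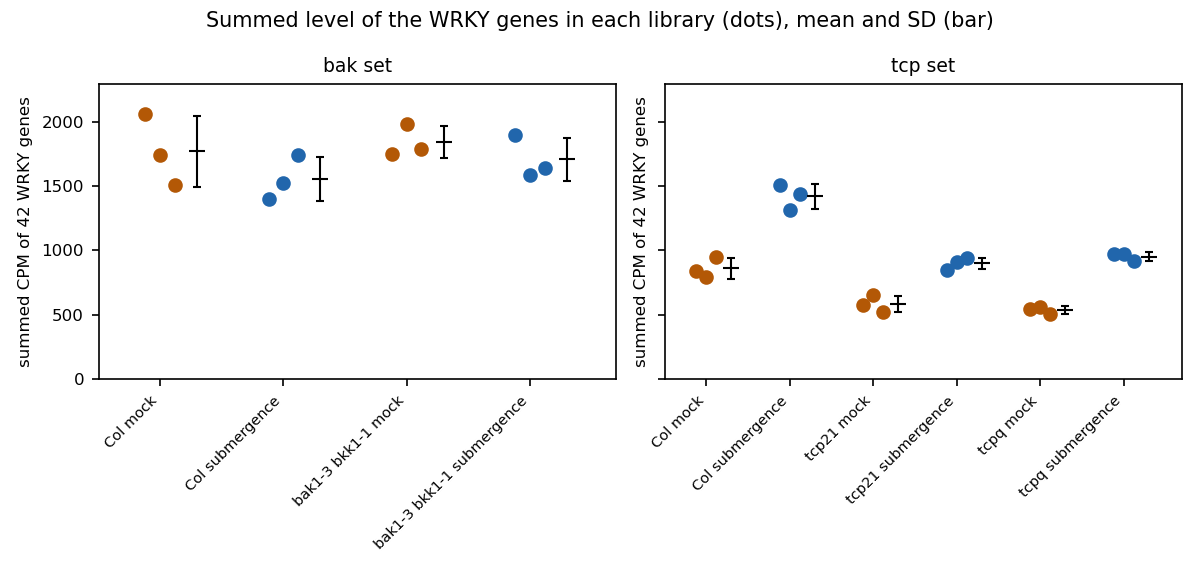
Summed CPM of the 42 listed WRKY genes in each library (dots, by group, with orange for mock and blue for submergence). The black bar gives the mean and SD of 3 libraries, and the vertical axis starts at 0. In the tcp set, submerged libraries lie above mock libraries in each genotype, while in the bak set the ranges of mock and submerged libraries overlap in both genotypes. Members with many counts weigh most in the sums, which do not show how most members moved.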

How the data were processed

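The authors deposited raw, unnormalized counts per gene for 32833 genes in each of 2 tables. Reads were trimmed with fastp 0.23.1 and aligned with STAR 2.7.9a to TAIR10, per the submitters' processing notes; which program counted reads, and with what strand setting, was not given in the sources used here. The 2 tables were never fitted together. Models were fitted in edgeR 4.0.16 (R 4.3.3) with filterByExpr, TMM scaling and robust quasi-likelihood tests over all groups of its set, and p-values were Benjamini-Hochberg adjusted over all genes tested. CPM are counts per 1000000 of the TMM-scaled library. The SE is approximate, from the size of the fold change divided by the root of its F statistic. DESeq2 1.42.0, RLE scaling, no filter, a replicate block, a fit of only the groups compared and leaving out each library were alternatives. The code was tested on simulated data. Members and lists were chosen with earlier results of these data known. Text names every member. Library values are given for a part of the called members with the smallest adjusted p, up to 4 per direction, and for some other members. The rest are given by fold change or in a count. Sequences and gene starts come from RefSeq TAIR10.1, and symbols matched for 41 of 42 members (WRKY1 is ZAP1 there).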

Additional observations from a re-analysis of the deposited data

Results flagged for a closer look

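The members below changed differently under submergence in a tcp mutant than in Col, by the interaction in the edgeR fit at an adjusted p below 0.05; values are log2 differences between the responses. In tcp21 the response was more positive by 1.76 for WRKY48, 1.54 for WRKY75, 1.40 for WRKY70, 1.38 for WRKY72, 1.25 for WRKY22, 0.81 for WRKY18, 0.80 for WRKY21, 0.79 for WRKY15, 0.76 for WRKY26, 0.53 for WRKY25 and 0.44 for WRKY39. It was more negative in tcp21, with -1.76 for WRKY11, -1.23 for WRKY6, -1.19 for WRKY17, -1.19 for WRKY7, -1.18 for WRKY57, -0.97 for WRKY47 and -0.92 for WRKY27. In tcpq the response was more positive by 6.29 for WRKY38, 4.95 for WRKY46, 3.48 for WRKY48, 2.30 for WRKY40, 2.04 for WRKY54, 1.83 for WRKY72, 1.59 for WRKY18, 1.59 for WRKY33, 1.45 for WRKY75, 1.2 for WRKY70, 1.11 for WRKY15, 0.88 for WRKY29 and 0.60 for WRKY25. It was more negative in tcpq, with -2.21 for WRKY30, -2.15 for WRKY27, -2.09 for WRKY7, -1.46 for WRKY28, -1.04 for WRKY57, -0.97 for WRKY17, -0.83 for WRKY47, -0.70 for WRKY3, -0.66 for WRKY11 and -0.60 for WRKY6. The WRKY38 value rests on tcpq mock libraries with 0 counts and depends on the prior count. The tcp21 and tcpq interactions share the Col libraries. Leaving out 1 library gave 12 fits for each interaction. The tcp21 calls were lost in 7 for WRKY18, 7 for WRKY22, 6 for WRKY27 and 1 for WRKY39 (adjusted p up to 0.144). The tcpq calls were lost in 8 for WRKY30, 8 for WRKY40, 6 for WRKY70, 4 for WRKY6 and 4 for WRKY11 (up to 0.113). The replicate block lost WRKY18 in tcp21 (0.0637) and WRKY40 (0.0594) and WRKY30 (0.0526) in tcpq. Without the filter, WRKY18 in tcp21 (0.0577) and WRKY70 in tcpq (0.0519) were lost. With only the groups compared in the fit, WRKY27 in tcp21 was lost (0.0510).

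For WRKY3, WRKY45 and WRKY75, every submerged Col library lay above every mock library in one set and below in the other, a difference that was not tested because the sets were fitted apart. WRKY3 changed by 0.43 in bak-set Col and by -0.64 in tcp-set Col. WRKY45 changed by 2.16 and -0.73, and WRKY75 by 1.32 and -1.10.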

How the results depend on the processing

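Counts of members called kept within 1.5 times of the values given under another scaling, without the filter, with DESeq2, with a replicate block and with only the groups compared in the fit, apart from the following. The bak1-3 bkk1-1 interaction gave 1 member lower without the filter and 1 with DESeq2, instead of 0. With the replicate block, tcp21 against Col under submergence gave 0 members higher instead of 1. With only the groups compared in the fit, tcpq against Col under submergence gave 2 higher instead of 1, and tcpq against tcp21 under submergence 7 higher and 2 lower instead of 4 and 1. Leaving out 1 library each gave 1 to 2 members higher for bak1-3 bkk1-1 against Col under submergence, 0 to 1 for tcp21 against Col under submergence, 0 to 2 for tcpq against Col under submergence, and 1 to 3 higher and 0 to 1 lower for tcpq against tcp21 under submergence. For WRKY46, the submergence change in tcp21 was -0.17 and not called with all libraries, turned to 0.94 (adjusted p = 0.0274) without tcp21 mock replicate 2, and ran from -0.60 to 0.94 over all single left-out libraries; the cause was not tested. The correlations of deviations between libraries with the same replicate number in their titles ran from -0.0927 to 0.0681. In some groups, such as submerged Col of the bak set, the column names number the libraries otherwise. Pairing by those numbers was not tested, so the correlations do not settle whether libraries were paired. With the block, 634 of the single-gene results kept direction and side of the threshold, 10 lost the call and 1 gained it. Members with few counts, such as WRKY30, WRKY38 and WRKY41, are limited by depth: 3 counts are worth 0.111 to 0.155 CPM in the bak set and 0.0866 to 0.184 in the tcp set.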
